A study of Homo sapiens with 6 samples.

Results

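The miR-193 and miR-365 genes form a pair of paralogous clusters, each of which holds 1 miR-193 hairpin and 1 miR-365 hairpin. Their mature products were taken as every entry of the sequencing table named miR-193a, miR-193b, miR-365a or miR-365b, which gave 6 of the 449 listed miRNAs. The entries miR-365a-3p and miR-365b-3p held the same value in every library, so the 6 entries carried 5 distinct sets of values. The cells were breast cancer stem-like cells (BCSCs) grown as spheres from MDA-MB-231, an established human triple-negative breast cancer line with a mesenchymal phenotype. BCSCs received rosmarinic acid (RA), a plant phenolic acid extracted from S. glabra, at 200 μg/mL for 48 h, and the control BCSCs received 0 μg/mL for 48 h. RA was dissolved in dimethyl sulfoxide, and the sphere culture, the growth factors and the medium were shared by both groups. Each group had 3 libraries, labelled as wells. No label calls them separate cultures, so the spread behind each p-value is that of these libraries and may be technical.

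A microRNA hairpin is cut into a 5p and a 3p arm, and the arm loaded into an Argonaute protein pairs with messenger RNAs mainly through its seed, bases 2 to 8 from its 5′ end. miR-193a-3p and miR-193b-3p share a seed and are known to repress CCND1 (cyclin D1, which drives entry into S phase) and MCL1 (an anti-apoptotic BCL2 relative), while miR-193a-5p is known to repress TP73, a p53-family gene, and miR-365-3p to repress CCND1. In mouse, the cluster of miR-193b and miR-365 is known for its role in brown fat formation.

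The mature sequences show which arms can be assigned to 1 cluster and which cannot. All 8 mature sequences of the 4 hairpins were found in RefSeq (GRCh38.p14), and all lie on the plus strand. They are written 5′ to 3′ with the seed in capitals.
miR-193a-5p: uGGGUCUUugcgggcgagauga
miR-193a-3p: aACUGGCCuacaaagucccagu
miR-365b-5p: aGGGACUUucaggggcagcugu
miR-365b-3p: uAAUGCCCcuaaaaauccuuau
miR-193b-5p: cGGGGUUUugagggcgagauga
miR-193b-3p: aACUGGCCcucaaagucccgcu
miR-365a-5p: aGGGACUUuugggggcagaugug
miR-365a-3p: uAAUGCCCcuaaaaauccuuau

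The chromosome 17 cluster holds MIR193A (chr17:31559996-31560083) and, 15327 bases downstream, MIR365B (chr17:31575411-31575521). The mature arms lie at chr17:31560016-31560037 for miR-193a-5p, chr17:31560050-31560071 for miR-193a-3p, chr17:31575439-31575460 for miR-365b-5p and chr17:31575478-31575499 for miR-365b-3p. MIR365B lies in an exon of the lincRNA AC003101.1, and no other annotated gene overlaps MIR193A. The chromosome 16 cluster holds MIR193B (chr16:14303967-14304049) and, 5235 bases downstream, MIR365A (chr16:14309285-14309371), both in introns of the lincRNA MIR193BHG. Its mature arms lie at chr16:14303980-14304001 for miR-193b-5p, chr16:14304017-14304038 for miR-193b-3p, chr16:14309300-14309322 for miR-365a-5p and chr16:14309340-14309361 for miR-365a-3p. These coordinates and annotations are of GRCh38, whereas the deposited values were made on hg19 and carry no coordinates.

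The clusters differ in 3 of their 4 arms. The 3p arms of miR-193a and miR-193b differ at 4 of 22 bases, all outside the seed, here in capitals.
miR-193a-3p: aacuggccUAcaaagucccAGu
miR-193b-3p: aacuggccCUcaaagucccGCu
Counted from the 5′ end, with the miR-193a-3p base first, these differences are U9C, A10U, A20G and G21C. The 5p arms also differ at 4 of 22 bases (U1C, U5G, C6U and C11A, with the miR-193a-5p base first), of which U5G and C6U lie in the seed, so that miR-193a-5p and miR-193b-5p do not share a seed. miR-365b-5p and miR-365a-5p differ at 3 of the 22 bases compared (C10U, A11G and C19A, with the miR-365b-5p base first), and miR-365a-5p is 1 base longer. miR-365a-3p and miR-365b-3p are the same at all 22 bases, so reads of that arm cannot be assigned to a cluster. The identical value listed under both names is called miR-365-3p from here on and is counted once. miR-193b-5p and miR-365a-5p were not analysed here. Among the analysed products, miR-193a-5p, miR-193a-3p and miR-365b-5p therefore report on the chromosome 17 cluster alone, and miR-193b-3p on the chromosome 16 cluster alone.

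Depth differed with the group and sets how firmly each value can be read. Reads listed for miRNAs ranged from 2190324 to 4111404 in the control libraries and from 176590 to 1158116 in the RA libraries, and the median was 11.5-fold lower after RA. 1 read stood for 0.233 to 0.526 CPM (reads scaled by the effective size of the library) in the controls, 0.987 CPM in RA replicate 1, 5.21 CPM in RA replicate 2 and 2.91 CPM in RA replicate 3. The 5 miRNAs taken as high in mesenchymal and basal breast lines, miR-21-5p among them, summed to 293148 to 348115 CPM in controls and 232786 to 264162 CPM after RA. The 4 listed epithelial markers summed to 183 to 277 CPM over the 6 libraries. Some markers of other tissues stood apart in RA replicate 1 or 3. The endothelial markers miR-126-3p and miR-126-5p summed to 412 CPM in RA replicate 1 and 233 CPM in RA replicate 3. They summed to 3.16 to 8.99 CPM in controls and 0 in RA replicate 2. The liver marker miR-122-5p reached 9493 CPM in RA replicate 1, against 1.61 to 32.1 CPM in controls. It measured 5.21 CPM in RA replicate 2 and 0 in RA replicate 3. The 2 listed muscle markers, miR-206 and miR-1-3p, summed to 610 to 915 CPM in controls and 589 to 698 CPM after RA. The 7 blood markers summed to 1935 to 2104 CPM in controls and 1683 to 2682 CPM after RA. Most of that sum was miR-142-5p, miR-142-3p and miR-486-5p. miR-451a measured 5.26 to 33.8 CPM in controls and 26.0 to 824 CPM after RA and was called higher in limma. In edgeR 3 of the 7 blood markers were called higher, miR-223-3p and miR-150-5p with miR-451a. Both endothelial markers and the liver marker were also called higher in edgeR, and none of them in limma. Over all 449 miRNAs, 2.9% were called higher in limma and 8.46% in edgeR. The labels' extraction notes describe brain tissue. Of the 2 brain markers, miR-124-3p was not among the 449 listed miRNAs. The other, miR-9-5p, measured 4880 to 5278 CPM in controls and 3895 to 6022 CPM after RA, and its source was not tested.

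The cluster products ranked from place 108 to place 354 of the 449 miRNAs by control mean CPM, with miR-365-3p as the most abundant, miR-193a-3p, miR-365b-5p and miR-193a-5p at intermediate levels, and miR-193b-3p at the limit of detection. A mature miRNA is read from end to end, so these CPM levels were compared without a length term, although adapter ligation favours some sequences over others. In controls the mean level was 322 ± 117 CPM for miR-365-3p, 35.4 ± 4.12 CPM for miR-193a-3p, 23.1 ± 3.18 CPM for miR-365b-5p, 18.1 ± 5.94 CPM for miR-193a-5p and 0.467 ± 0.211 CPM for miR-193b-3p (SD, n = 3 each). In this order only miR-365b-5p and miR-193a-5p had overlapping control ranges, 20.2 to 26.5 CPM and 12.6 to 24.4 CPM. After RA the order was the same, but miR-193a-3p (17.8 to 29.1 CPM) and miR-365b-5p (14.5 to 26.0 CPM) overlapped, and so did miR-193a-5p (0 to 8.72 CPM) and miR-193b-3p (0 to 5.21 CPM). Together the 5 distinct products made up 0.021% to 0.0533% of the miRNA reads of a library, and miR-365-3p was 70.4% to 90.2% of their summed CPM.

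**Figure D1:**
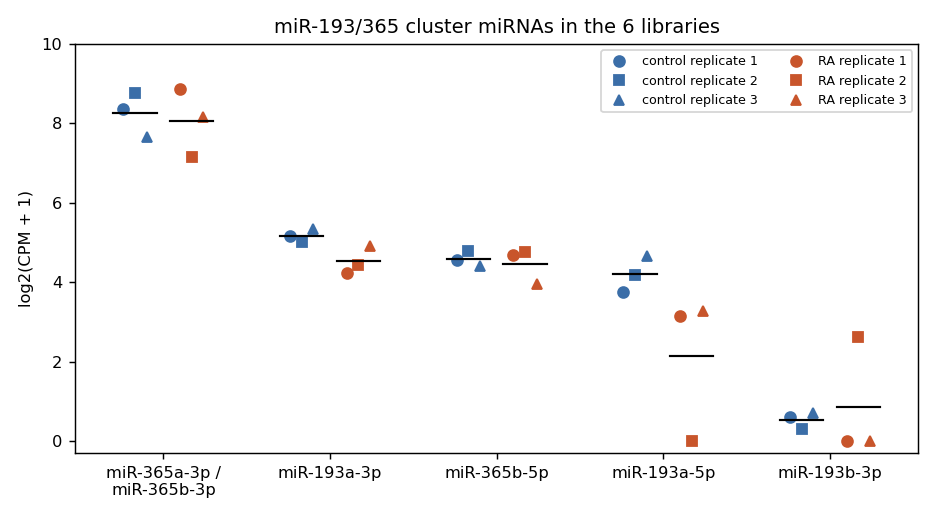
Level of each cluster miRNA in the 6 libraries, as log2(CPM + 1) on the vertical axis, with control libraries in blue, RA libraries in orange, marker shape for the replicate and a black bar at the group mean (n = 3). The RA points of miR-193a-3p and miR-193a-5p all sit below the control points of the same miRNA, the groups overlap for the other products, and the lowest miR-193a-5p point is RA replicate 2 at 0 reads.

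The RA comparison asks whether 48 h with RA was accompanied by another level of these miRNAs. Both products of MIR193A were below their control values in every RA library, as were 17.1% of the 449 listed miRNAs. Their mean log2 differences were -2.06 for miR-193a-5p and -0.65 for miR-193a-3p. The miR-365 products overlapped between groups, and miR-193b-3p was too scarce to compare. None of the cluster miRNAs passed an adjusted p of 0.05 in limma or in edgeR's quasi-likelihood test. At an unadjusted p under 0.05, 1 of the 5 distinct products, miR-193a-5p, was lower after RA in limma. By adjusted p in limma 4.68% of the 449 listed miRNAs were called lower after RA and 2.9% higher, and in edgeR 6.24% and 8.46%. RNA came from whole wells, so fewer cells of one kind and less miRNA per cell cannot be told apart.

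hsa-miR-193a-5p, the arm known to act on TP73, measured 12.6, 17.2 and 24.4 CPM in control replicates 1, 2 and 3, and 7.90, 0 and 8.72 CPM in RA replicates 1, 2 and 3. The RA libraries were all below the controls, and the lowest control and the highest RA library were 12.6 CPM and 8.72 CPM. The group means were 18.1 ± 5.94 CPM and 5.54 ± 4.82 CPM (SD, n = 3 each). The difference on the log2(CPM + 1) scale was -2.06 (SE 0.85, 95% interval -3.91 to -0.21), with adjusted p = 0.178 from limma over the 449 miRNAs. In edgeR, which weighs the recovered reads, the difference was -1.44, with adjusted p = 0.133. An unadjusted p under 0.05 with a lower level after RA was found for 13.8% of all miRNAs in limma, and that p together with a fold change over 2 for 6.01%, miR-193a-5p among them. Values of all RA libraries below all control libraries were found for 17.1% of all miRNAs.

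These miR-193a-5p values rest on few reads. The controls held 24, 74 and 76 reads, and the RA libraries 8, 0 and 3 reads. At the control mean level, 18.3 reads would fall in RA replicate 1, 3.47 in RA replicate 2 and 6.22 in RA replicate 3. The 95% exact Poisson interval around the 8 reads of RA replicate 1 was 3.45 to 15.8 reads, which lies below 18.3. In CPM it was 3.41 to 15.6, which includes the 12.6 CPM of control replicate 1. The interval around the 3 reads of RA replicate 3 was 0.619 to 8.77 reads, which includes 6.22. A count of 0 in RA replicate 2, taken to allow 3 reads, allows up to 15.6 CPM, a level inside the control range. The two-sided exact limit for that count was 3.69 reads, or 19.2 CPM, above the 3.47 reads at the control mean. Intervals and limits of this kind cover counting error only. Without RA replicate 2 the difference shrank to -0.99, with adjusted p = 0.174 from limma, and the fold no longer passed 2, while edgeR gave -1.16. RA replicate 1, the library with the most miR-122-5p, was also the deepest RA library, and without it the difference was -2.57, with adjusted p = 0.111 from limma. Without RA replicate 3 it was -2.63, with adjusted p = 0.361 from limma. Over all 23 alternatives the adjusted p ranged from 0.06 to 0.546, and the part of the tissue markers in these values was not tested beyond leaving out each library.

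**Figure D2:**
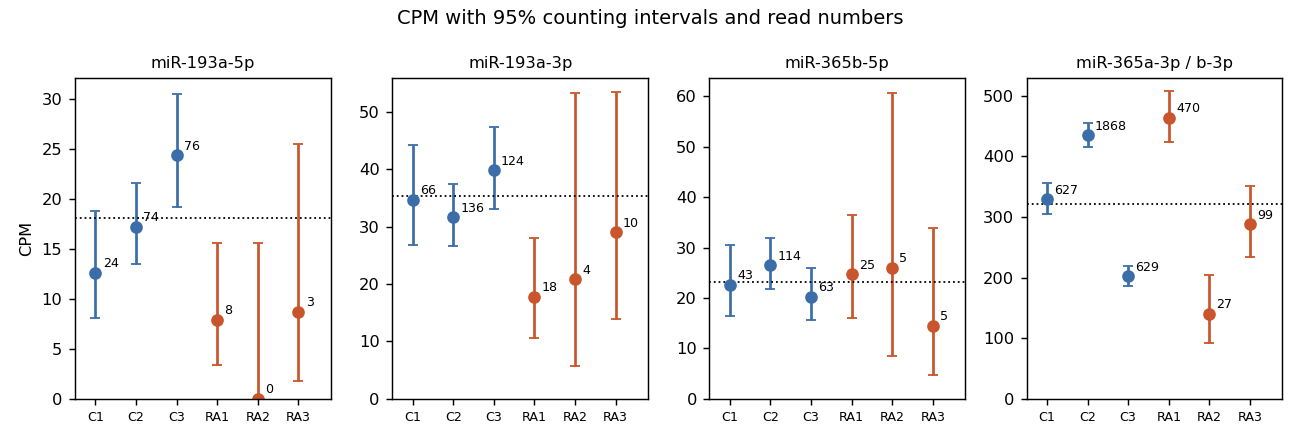
CPM of miR-193a-5p, miR-193a-3p, miR-365b-5p and miR-365-3p in control replicates 1 to 3 (C1 to C3, blue) and RA replicates 1 to 3 (RA1 to RA3, orange), with the read number beside each point, 95% exact Poisson bars and a dotted line at the control mean. The bar of the 1 library with 0 reads runs only to the level of 3 reads (15.6 CPM). Its two-sided exact limit is 19.2 CPM, above the dotted line at 18.1 CPM. The bars of RA replicates 2 and 3 reach the control mean of miR-193a-3p, whose RA libraries held 18, 4 and 10 reads.

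miR-193a-3p, the arm that shares its seed with miR-193b-3p, measured 34.7, 31.7 and 39.8 CPM in control replicates 1, 2 and 3, and 17.8, 20.8 and 29.1 CPM in RA replicates 1, 2 and 3. The RA libraries were all below the controls, as for 17.1% of all miRNAs, with RA replicate 3 nearest to the controls. Means were 35.4 ± 4.12 CPM and 22.6 ± 5.85 CPM (SD, n = 3 each), from 326 and 32 reads in all. The log2 difference was -0.65 (SE 0.39, 95% interval -1.51 to 0.21), with adjusted p = 0.39 from limma and adjusted p = 0.286 from edgeR. It was below 0 under all 23 alternatives tried, from -0.84 to -0.35, and that of miR-193a-5p likewise, from -2.63 to -0.99. Since neither arm overlapped between groups, leaving out a library or changing the pseudocount in limma could not turn the sign. The shared sign therefore adds no support beyond the same libraries.

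miR-365-3p, which either cluster can give, measured 330, 435 and 202 CPM in control replicates 1, 2 and 3, and 464, 141 and 288 CPM in RA replicates 1, 2 and 3. RA replicate 1 held the highest of the 6 values and RA replicate 2 the lowest, so the groups overlapped across their whole range. Means were 322 ± 117 CPM and 298 ± 162 CPM (SD, n = 3 each). The log2 difference was -0.21 (SE 0.40, 95% interval -1.09 to 0.68), with adjusted p = 0.77 from limma. Its sign turned under 7 of 23 alternatives, upper-quartile scaling among them. The controls held 627, 1868 and 629 reads and the RA libraries 470, 27 and 99, and the counting intervals of control replicates 1, 2 and 3 did not overlap each other.

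miR-365b-5p, the arm that marks the chromosome 17 copy, measured 22.6, 26.5 and 20.2 CPM in controls and 24.7, 26.0 and 14.5 CPM after RA, from 43, 114 and 63 reads and from 25, 5 and 5 reads. RA replicate 3 alone lay outside the control range. Means were 23.1 ± 3.18 CPM and 21.8 ± 6.29 CPM (SD, n = 3 each), and the log2 difference was -0.12 (SE 0.43, 95% interval -1.07 to 0.83), with adjusted p = 0.88 from limma. It turned above 0 under 7 of 23 alternatives, among them scaling to the library total, upper-quartile scaling and DESeq2 size factors.

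hsa-miR-193b-3p was seen in 1, 1 and 2 reads in the controls and in 0, 1 and 0 reads in the RA libraries, which is 0.526, 0.233 and 0.642 CPM and 0, 5.21 and 0 CPM. The 5.21 CPM of RA replicate 2 is 1 read in the shallowest library. Over the RA group, 3 reads stand for 1.94 CPM, above each control value, so a level below that of the controls was not detectable at this depth. The fitted log2 difference of 0.34 (SE 0.86, adjusted p = 0.83 from limma) turned to -0.54 without RA replicate 2.

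**Figure D3:**
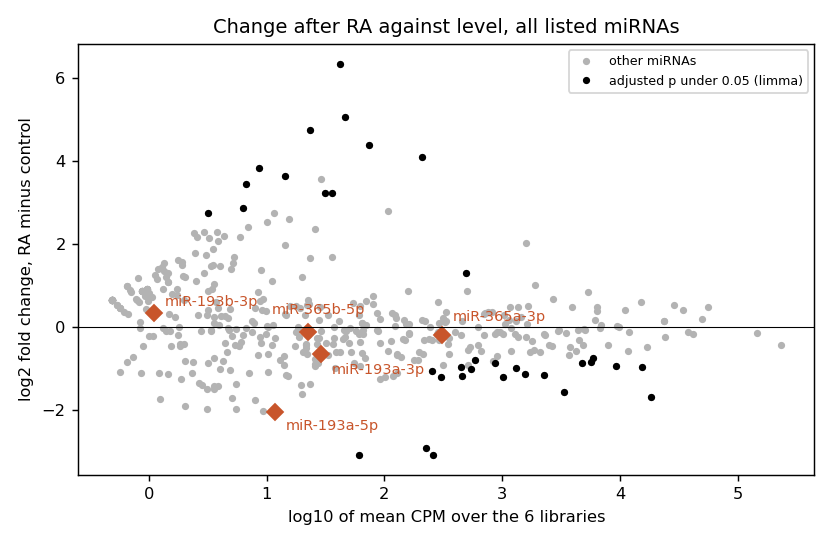
Log2 fold change of RA minus control (vertical axis, log2(CPM + 1) scale) against the log10 of mean CPM over the 6 libraries for all 449 miRNAs, with the cluster miRNAs as orange diamonds and miRNAs at an adjusted p under 0.05 in limma as black points. miR-193a-5p lies at -2.06 among uncoloured points of similar level, miR-193a-3p at -0.65, and the miR-365 products near 0.

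The clusters were then compared with each other through the arms that only 1 of them makes. The chromosome 17 arms held 133, 324 and 263 reads in controls and 51, 9 and 18 reads after RA, against 1, 1 and 2 and 0, 1 and 0 reads for miR-193b-3p of chromosome 16. Summed over the group this was 720 against 4 reads in controls, a ratio of 180 (95% exact interval 70.0 to 662), and 78 against 1 read after RA, a ratio of 78 (13.6 to 3120). The RA ratio rests on 1 read of RA replicate 2, and RA replicate 1 gave most of its 78 reads. As means of CPM, which weigh the libraries equally, the levels were 76.6 against 0.467 CPM in controls and 49.9 against 1.74 CPM after RA. This ratio counts 3 arms against 1. Among the analysed products, only miR-193-3p had a distinguishable form from each cluster. Of its reads, miR-193b-3p was 1.21% in controls (4 of 330, 95% Clopper-Pearson interval 0.331% to 3.07%) and 3.03% after RA (1 of 33, 0.0767% to 15.8%). miR-193-3p reads were therefore nearly all of the chromosome 17 form in both groups, and the intervals of the shares overlapped.

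The summed level of the chromosome 17 arms was 70.0, 75.4 and 84.5 CPM in control replicates 1, 2 and 3, and 50.4, 46.9 and 52.3 CPM in RA replicates 1, 2 and 3. The means were 76.6 ± 7.32 CPM and 49.9 ± 2.76 CPM (SD, n = 3 each), a ratio of 1.54. The RA sums rest on 51, 9 and 18 reads. In RA replicate 2, 1 read stood for 5.21 CPM, more than the RA SD. That SD therefore understates the counting error, and the ratio was not tested. The groups did not overlap in this sum, and 17.1% of the 449 listed miRNAs, taken singly, had all RA libraries below all controls. The sum holds both miR-193a arms described above, so its separation adds no support beyond theirs. With miR-365-3p and miR-193b-3p included, the sum was 399 ± 112 CPM in controls and 349 ± 161 CPM after RA.

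Arm use within a hairpin was compared next, since the share of reads from an arm is free of the library scaling. In MIR193A the 3p arm was the more abundant in every library, and the 5p arm was 26.7%, 35.2% and 38.0% of its reads in control replicates 1, 2 and 3 (24 of 90, 74 of 210 and 76 of 200) and 30.8%, 0% and 23.1% in RA replicates 1, 2 and 3 (8 of 26, 0 of 4 and 3 of 13). RA replicate 1, with the most RA reads, lay inside the control range. Over the group the 5p share was 34.8% (95% Clopper-Pearson interval 30.6% to 39.2%) in controls and 25.6% (13.5% to 41.2%) after RA. As log2 of 5p over 3p, the ratio was -0.97 ± 0.37 in controls and -2.38 ± 1.81 after RA (SD, n = 3 each), a change of -1.41 (SE 0.89, 95% interval -3.52 to 0.70), with adjusted p = 0.50 from limma over 111 hairpins. The change was the 9th lowest of those 111, of which 0.901% were called in either direction and 14.4% had all RA ratios below all control ratios. MIR193A was in neither count. The log2 ratio depends on the pseudocount where an arm is at 0 reads, and the change was -1.75 with a pseudocount of 0.5 CPM and -0.67 with 5 CPM. Without RA replicate 2 it shrank to -0.38.

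In MIR365B the 5p arm is set against a 3p value that both clusters can feed. miR-365b-5p was 6.42%, 5.75% and 9.10% of these reads in control replicates 1, 2 and 3, and 5.05%, 15.6% and 4.81% in RA replicates 1, 2 and 3. RA replicate 2, with 5 reads of 32, stood above all others, and the remaining RA libraries stood below all controls. Over the group the share was 6.58% (95% Clopper-Pearson interval 5.76% to 7.47%) in controls and 5.55% (3.89% to 7.63%) after RA. These intervals pool reads over libraries and leave out the spread between them. The 9.10% of control replicate 3 and the 15.6% of RA replicate 2 lay above those of their groups. The log2 ratio changed by 0.09 (SE 0.59, 95% interval -1.31 to 1.48), with adjusted p = 0.96 from limma, and by -0.51 without RA replicate 2. Of the 111 hairpins with both arms listed, 41 had the 3p arm dominant in controls, MIR193A and MIR365B among them, and the median change over all 111 was -0.04.

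**Figure D4:**
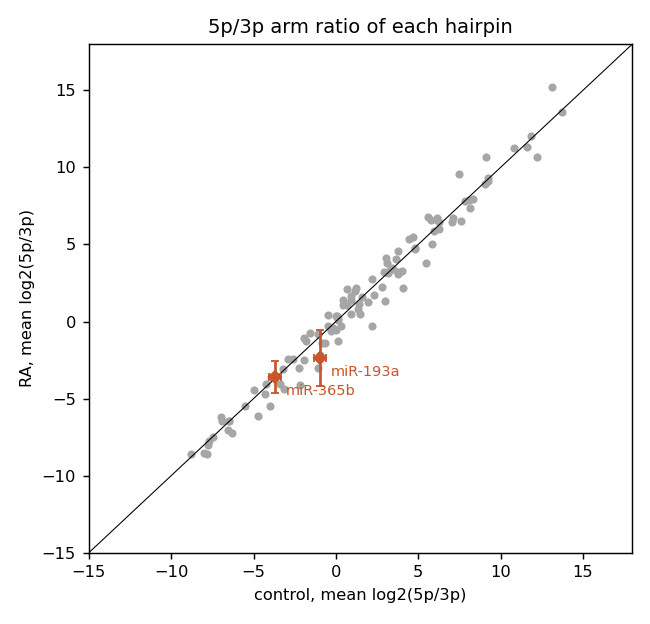
Mean log2 of 5p over 3p CPM in RA libraries (vertical axis) against control libraries (horizontal axis) for 111 hairpins, on the log2((CPM + 1)/(CPM + 1)) scale, with miR-193a and miR-365b in orange with SD bars (n = 3) and a line of equal ratios. Both hairpins sit at negative ratios in both groups, miR-193a at -0.97 in controls and -2.38 after RA with an SD bar that reaches the line.

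Whether the products moved differently from each other was tested on their log2 ratios by an exact two-sided permutation test over the 6 libraries, for all 10 pairs of the 5 products. The smallest p that 3 against 3 libraries allow is 0.1, so no pair could reach 0.05. Only the ratio of miR-193a-5p to miR-365-3p did not overlap between groups, with a difference of -1.86 after RA, exact p = 0.1 and adjusted p = 0.5 over the 10 pairs. miR-193a-5p minus miR-193a-3p gave -1.41 with exact p = 0.2, and miR-193a-5p minus miR-365b-5p gave -1.94 with exact p = 0.2. miR-365-3p minus miR-365b-5p gave -0.09 with exact p = 1. The adjusted p over all pairs ranged from 0.5 to 1.

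Other miRNAs known to act on the same targets were compared in the same way, in lists that include the cluster products themselves. Of 19 listed miRNAs known to act on CCND1, 4 were lower after RA in limma and none higher. The limma shares over all 449 miRNAs were 4.68% lower and 2.9% higher. edgeR called 5 lower and none higher, beside 6.24% lower and 8.46% higher over all miRNAs. The median log2 difference was -0.64 against 0.00 over all miRNAs. The 4 were miR-19a-3p (-3.09, adjusted p = 0.0033) and miR-20a-5p (-1.14, adjusted p = 0.024) from the MIR17HG cluster, miR-106b-5p (-1.01, adjusted p = 0.023), whose seed miR-20a-5p shares, and miR-195-5p (-1.18, adjusted p = 0.0050) of the miR-16 seed family. The most abundant of the list were miR-26a-5p, let-7b-5p and miR-16-5p, at 0.54, 0.47 and -0.61, and none of these was called in limma.

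Of 8 listed miRNAs known to act on MCL1, 1 was lower after RA in limma and none higher, beside 4.68% lower and 2.9% higher over all 449 miRNAs. It was miR-101-3p, which also acts on EZH2 (-1.16, adjusted p = 0.0070 from limma). edgeR called the same single miRNA, beside 6.24% lower and 8.46% higher over all miRNAs. The median was -0.16, and the most abundant besides miR-101-3p were miR-125b-5p at 0.00 and miR-29a-3p at -0.19.

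None of the 12 listed miRNAs tied to the p53 family was called in limma, with 4 lower and 0 higher at an unadjusted p under 0.05, a p that 13.8% of all miRNAs had in the lower direction. edgeR called 1 lower and 1 higher, beside 6.24% and 8.46% of all miRNAs. The median was -0.41, and the 3 most abundant, miR-143-3p, miR-34c-5p and miR-192-5p, stood at -0.12, -0.58 and 0.29. Of 20 listed miRNAs of brown fat formation, miR-378a-3p, a product of the PPARGC1B locus, was lower after RA (-0.75, adjusted p = 0.024 from limma) and none was higher, with a median of -0.25. That is 1 of 20, near the 4.68% of all miRNAs called lower in limma. edgeR called 2 of the 20 lower and 1 higher, beside 6.24% and 8.46% of all miRNAs. The most abundant of that list, miR-27b-3p, miR-26a-5p and miR-27a-3p, stood at -0.12, 0.54 and 0.39. These lists overlap each other and the members were chosen with results known, so the counts describe the lists.

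The miRNAs whose log2(CPM + 1) followed a cluster product most closely over the 6 libraries were sought among 260 candidates whose mean reached 10 CPM. For miR-193a-5p these were miR-9-3p (Pearson r = 0.967), miR-331-3p (0.960) and miR-30c-5p (0.948), none of them called. For miR-193a-3p they were miR-27b-5p (0.947), miR-93-5p (0.947) and miR-27a-5p (0.935), and of these miR-27a-5p was lower after RA (-1.06, adjusted p = 0.017 from limma). For miR-365-3p they were, beside its duplicate entry, miR-320a-3p (0.972) and miR-361-3p (0.886), and for miR-365b-5p they were miR-1249-3p (0.888), miR-1306-5p (0.872) and miR-23b-5p (0.857). Among the products themselves r was 0.675 between miR-193a-5p and miR-193a-3p, 0.0874 between miR-365-3p and miR-365b-5p, and -0.0709 between miR-193a-3p and miR-365-3p. These 6 points share the group difference and the depth of each library, so the coefficients describe these libraries only.

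miRNAs of similar control level give the values found at the same depth. Next to miR-193a-5p in the order of control means stood miR-21-3p, miR-320c, miR-187-3p and miR-181c-3p, with log2 differences of -0.25, 0.56, -0.91 and 0.28, and none of them was called. Next to miR-193a-3p stood miR-16-2-3p, miR-378e, miR-7-1-3p and miR-378g, at -0.40, -0.87, -1.38 and -0.95, and none was called. Of these, 3 also had all RA libraries below all controls, as did 17.1% of all miRNAs. Next to miR-365-3p stood let-7d-3p at 0.87, miR-361-3p at -0.22, miR-214-5p at -0.31 and miR-744-5p at 0.14. The neighbours of miR-365b-5p were miR-29c-3p, miR-345-3p, miR-1249-3p and miR-301a-3p, from -0.44 to -0.08. Those of miR-193b-3p were miR-6882-5p, miR-6516-3p, miR-126-5p and miR-144-5p, from 0.64 to 2.15. Again none of these neighbours was called in limma. Among the neighbours of all products, miR-320c, let-7d-3p and miR-6882-5p had all RA libraries above all controls.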

How the data were processed

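Small RNA libraries of 3 control and 3 RA samples were sequenced by the authors on an Illumina instrument. The labels name NextSeq 500 and the methods name another model. The values deposited by the authors are, per library, a signal normalized to CPM by effective library size and, per group, log2 values that were not used. The build in the submitters' processing notes is hg19, and the read mapping and counting software is not given in the sources. Columns of the authors' own comparison hold fold changes and p-values and were not used. All 2694 values (100%) were whole multiples of the value of 1 read within 0.01 reads, and reads were recovered by division.

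limma 3.58.1 with a mean-variance trend (R 4.3.3) was fitted to log2(CPM + 1) of all 449 miRNAs, whose fold changes depend on the pseudocount for low miRNAs, with Benjamini-Hochberg adjustment and calls at an adjusted p under 0.05. Arm ratios were fitted likewise over 111 hairpins, and ratios between products by an exact permutation test (scipy 1.17.1). edgeR 4.0.16, DESeq2 1.42.0 and limma-voom on recovered reads, other scalings, pseudocounts, filters, a replicate block and leaving out each library were alternatives. The scripts were tested on simulated data. Named miRNAs were the cluster products, the 3 most correlated with each, the 2 above and the 2 below each in control level, and of each list the 3 most abundant and each called one. The result of 1 list is not reported here. The members and lists were chosen with earlier results of these data known, and the single-library edgeR fits and the merging of identical entries were added after the data were examined. Sequences are from RefSeq (8 of 8 mature miRNAs matched), host genes from GENCODE. Counting intervals are 95% exact intervals, which for a group pool the reads of its libraries and leave out the spread between them. A count of 0 was taken to allow 3 reads, below the two-sided exact limit of 3.69 reads.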

Additional observations from a re-analysis of the deposited data

How the results depend on the processing

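No cluster product passed an adjusted p of 0.05 under any alternative run. The number of all miRNAs called, 34 (13 higher, 21 lower), was 12 with upper-quartile scaling (9 higher, 3 lower), 28 with scaling to the library total (17 higher, 11 lower) and 28 with DESeq2 size factors (17 higher, 11 lower). It was 66 in edgeR (38 higher, 28 lower), 66 in DESeq2 (45 higher, 21 lower) and 77 in limma-voom (47 higher, 30 lower). Leaving out each library gave 10 to 49 in limma and, in edgeR on recovered reads, 27 to 91 (50, 27 and 52 without control replicates 1, 2 and 3, and 90, 91 and 38 without RA replicates 1, 2 and 3). These settings moved the median of all miRNAs by 0.13 (library total), 0.29 (upper quartile), 0.17 (DESeq2 size factors), 0.15 (edgeR), 0.32 (DESeq2) and 0.20 (limma-voom), on the log2 scale. Same-numbered libraries had correlations of 0.12, -0.19 and 0.13 in their deviations, and differently numbered ones from -0.25 to 0.14. Pairing by replicate number was thus not evident, but so few values cannot settle it. With the replicate block 55 miRNAs were called (24 higher, 31 lower), no cluster product among them. Hairpins with a called arm ratio, 1 in all, numbered 3 with a pseudocount of 5 CPM, 3 of 61 with a minimum of 10 CPM for both arms, 0 with the replicate block and 0 to 4 without 1 library. Product pairs without overlap, 1 of 10, numbered 3 with a pseudocount of 5 CPM and 1 to 5 without 1 library. The cause of these shifts was not tested.

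The log2 difference of miR-365-3p turned above 0 with upper-quartile scaling (0.10), in DESeq2 (0.080), without control replicate 2 (0.043, and 0.24 in edgeR), without RA replicate 2 (0.25, and 0.21 in edgeR) and without RA replicate 3 in edgeR (0.022). That of miR-365b-5p turned above 0 with scaling to the library total (0.011), upper-quartile scaling (0.17), DESeq2 size factors (0.053), in DESeq2 (0.080), without RA replicate 3 (0.14, and 0.19 in edgeR) and without control replicate 2 in edgeR (0.088). That of miR-193b-3p turned below 0 without RA replicate 2 (-0.54, and -3.10 in edgeR). The miR-365b arm ratio turned to -0.062 without control replicate 2 and to -0.51 without RA replicate 2. Without 1 library these differences ranged in limma from -0.61 to 0.25 for miR-365-3p, from -0.26 to 0.14 for miR-365b-5p and from -0.54 to 0.77 for miR-193b-3p, and the miR-365b arm ratio from -0.51 to 0.40. Depth limits every RA value: RA replicates 2 and 3 held 176590 and 298412 reads, and their levels under 15.6 CPM and 8.72 CPM rest on fewer than 3 reads.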
